A study of Mus musculus with 8 samples.

Results

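The miR-130 and miR-301 family was followed in small RNA libraries of CD8+ T cells from mouse spleen, the T cells that become killers of infected cells. Its 6 members were taken by name from the table of counts (mmu-miR-130a-3p, mmu-miR-130b-3p, mmu-miR-130b-5p, mmu-miR-301a-3p, mmu-miR-301b-3p and mmu-miR-301b-5p, written below without the prefix for mouse), out of 1978 mature microRNAs (miRNAs) listed there. Of the 8 libraries, 4 came from neonatal C57BL/6 mice of 5 to 7 days and 4 from adult C57BL/6 mice of 12 weeks. C57BL/6 is an inbred laboratory strain, and no allele or agent is named for either group. The labels do not say whether a library holds the spleen of 1 mouse or a pool, so p-values measure the spread between these libraries, which may be technical.

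A miRNA hairpin is cut into a short duplex with a 5p and a 3p strand, and the strand that stays in an Argonaute protein guides the repression of messenger RNAs. Target choice rests mainly on the seed, bases 2 to 8 of the miRNA. The 3p strands of this family share a seed, and Pparg, a nuclear receptor, is among their known targets. In mouse T helper cells miR-301a is known to promote the Th17 fate through Pias3, and in human endothelial cells miR-130a is known to promote vessel growth.

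The mature sequences show which members act through one seed and which do not (RefSeq, GRCm38.p6, the same assembly as mm10, capitals marking bases 2 to 8). Of the 6 members, 5 were found there, and miR-301b-3p is named only. The first 3 carry the family seed.
miR-130b-3p: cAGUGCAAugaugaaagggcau
miR-130a-3p: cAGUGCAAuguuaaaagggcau
miR-301a-3p: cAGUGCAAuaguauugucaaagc
miR-130b-5p: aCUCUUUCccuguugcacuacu
miR-301b-5p: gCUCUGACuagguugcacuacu
miR-301a-5p: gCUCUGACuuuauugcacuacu
The strand miR-301a-5p is no member and is shown because it has the seed of miR-301b-5p. miR-130b-3p and miR-130a-3p differed at 2 of 22 bases (A11U and G13A, counted from the 5′ end of miR-130b-3p), both outside the seed. miR-130b-3p and miR-301a-3p differed at 11 of 22 bases, all after the seed. Beyond the seed the family therefore falls into a miR-130 pair and a miR-301 pair.

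The hairpins of miR-130b and miR-301b lie 257 bases apart on the minus strand of chromosome 16, both in an intron of the protein-coding gene 2610318N02Rik. Mir130b spans chr16:17124061-17124142 and Mir301b chr16:17124400-17124496 (GRCm38.p6). Their sequences are shown because these neighbours differed in which strand was counted more in neonatal libraries. Capitals mark bases 2 to 8 of the 5p strand and the family seed on the 3p side.
Mir130b: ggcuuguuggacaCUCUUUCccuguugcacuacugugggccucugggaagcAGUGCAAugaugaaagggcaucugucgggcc
Mir301b: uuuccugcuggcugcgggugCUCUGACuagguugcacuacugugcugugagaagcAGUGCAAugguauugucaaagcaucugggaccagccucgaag
The Mir301b hairpin holds a stretch that matches miR-301a-3p at all but 1 of 23 bases (A10G, counted from the 5′ end of miR-301a-3p). A read of one of them with an error at that base could thus be counted as the other. Mir301 (miR-301a) lies in an intron of Ska2, on chr11:87113004-87113089, and Mir130a (chr2:84741115-84741178) overlaps no other annotated gene.

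Neonatal libraries held 1454422 to 2416060 counts, and adult libraries 1281033 to 2606637. Levels are given as CPM, counts scaled to a common library size with TMM factors (a trimmed mean of ratios between libraries). A count of 0 allows up to 3 counts, which on that scale equal 1.07 to 2.91 CPM, and such limits and the intervals below cover counting error only. Fold changes are neonatal over adult with their standard error (SE), tested by edgeR's quasi-likelihood test with Benjamini-Hochberg adjustment over 375 miRNAs. Of these, 63.2% were called at all, 29.1% higher and 34.1% lower in neonatal libraries, at an adjusted p under 0.05. With library totals in place of TMM, 49.6% were called higher and 18.1% lower, and log2 fold changes stood 0.625 higher on average.

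The miR-130b hairpin dominated the family in both age groups, and both of its strands were higher in neonatal cells. miR-130b-5p stood at 5714, 4248, 4931 and 4083 CPM in neonatal libraries 1 to 4, against 1210, 759.7, 909.9 and 744 CPM in adult libraries 1 to 4. The lowest neonatal library stood above the highest adult one, and the strand ranked 21 to 36 by CPM in neonatal libraries and 70 to 91 in adult libraries. The mean was 4744 ± 744 CPM in neonatal libraries, against 906 ± 216 CPM in adult ones (SD, n = 4 each), a 5.24-fold difference (log2 2.39 ± 0.19 SE, edgeR's adjusted p = 5.42e-07). Among the 273 miRNAs above the cut-off on low counts in all 8 libraries, this was the fold change of rank 4 from the top. In such bulk samples, a change in the share of cells that hold a miRNA and a change in its amount per cell cannot be told apart.

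miR-130b-3p, the strand with the family seed, was far less counted than its partner. It stood at 122, 141, 184 and 176 CPM in the neonatal libraries, in order of number, against 79.6, 63.7, 64.6 and 47.1 CPM in the adult ones. Again no adult library reached a neonatal one. The means were 156 ± 29.3 CPM in neonatal libraries, against 63.8 ± 13.3 CPM in adult ones, a 2.46-fold difference (log2 1.30 ± 0.21 SE, edgeR's adjusted p = 0.000146). Neonatal libraries lay above all adult ones for 26.4% of the 375 miRNAs and below them for 30.9%, so the separation by itself is shared with many others.

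**Figure D1:**
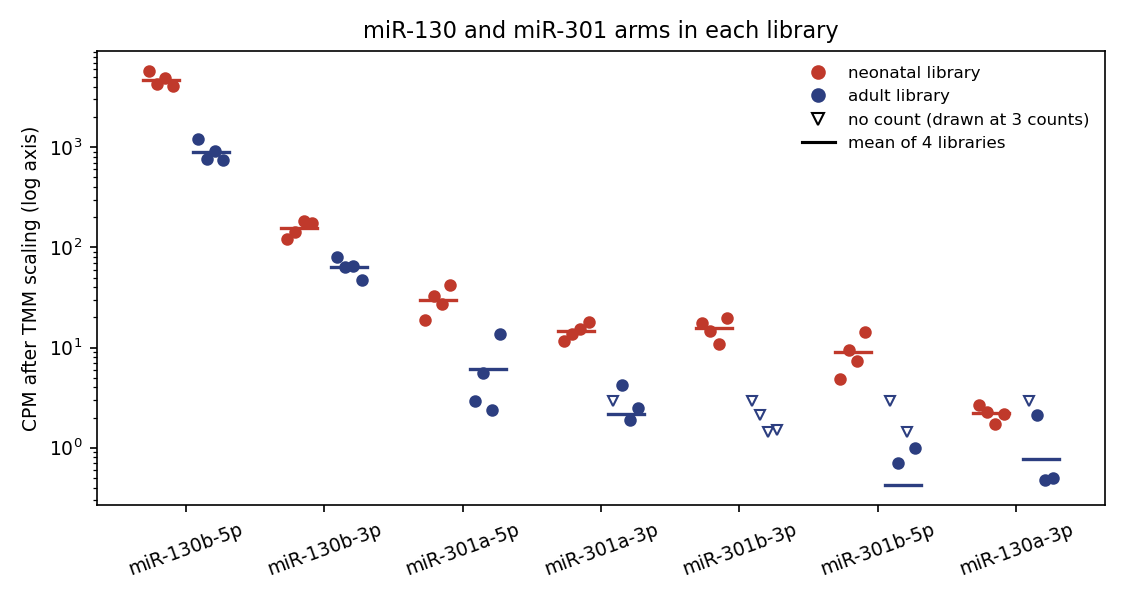
Level of each arm in each library (CPM after TMM scaling, log axis), neonatal libraries in red left of adult libraries in blue, with lines at the means of 4 libraries. Open triangles are libraries with no count, drawn at the level of 3 counts. miR-130b-5p stands highest in both groups, and miR-301b-3p has no count in any adult library.

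The miR-301 members were rare. miR-301a-3p had 22, 36, 35 and 50 counts in the neonatal libraries, against 0, 6, 4 and 5 in the adult ones. Every neonatal library stood above every adult one. Its level averaged 14.6 ± 2.59 CPM in neonatal libraries, against 2.15 ± 1.73 CPM in adult libraries, with a log2 fold change of 2.66 ± 0.43 (SE, edgeR's adjusted p = 0.00015). The value was 3.50 with libraries 1 and 3 alone and 2.23 with libraries 2 and 4 alone. miR-301a-3p passed the filter on low counts through neonatal libraries alone, so its separation and its call are a description.

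miR-301b-3p was counted in neonatal libraries alone. It had 33, 38, 25 and 55 counts in neonatal libraries 1 to 4 and no count in the 4 adult libraries. Its neonatal mean of 15.7 ± 3.83 CPM was at least 7.89-fold higher than 3 counts in each adult library would be. Its partner miR-301b-5p had 9, 25, 17 and 40 counts in the neonatal libraries, against 0, 1, 0 and 2 in the adult ones. Summed over each group and set against depth, 91 neonatal and 3 adult counts give a ratio of 20.7 (95% exact interval 6.88 to 102). Of the 3 adult counts, 2 came from adult library 4. miR-301a-3p and miR-301b-3p had neonatal levels that differed by less than their spread between libraries.

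miR-130a-3p stayed near the limit of detection and was not tested. It had 5, 6, 4 and 6 counts in the neonatal libraries, against 0, 3, 1 and 1 in the adult ones, and the groups overlapped in CPM. The sums of 21 neonatal and 5 adult counts give a depth-scaled ratio of 2.87 (95% exact interval 1.05 to 9.75). Its other strand, miR-130a-5p, had no count in any library.

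In all, 5 of the 6 members passed the filter on low counts and each was called higher in neonatal libraries, beside 29.1% of all miRNAs tested. Of these 5, miR-301a-3p, miR-301b-3p and miR-301b-5p passed it through the neonatal libraries alone and so had to differ. miR-130b-3p and miR-130b-5p, strands of 1 hairpin, passed it in both groups. Their log2 fold changes were 1.30 and 2.39, beside a median of -0.05 over all miRNAs tested. For miR-301b-3p only a lower bound can be given, a log2 of 2.98 against 3 counts in each adult library. miR-301a-5p, the strand opposite miR-301a-3p, was likewise called higher, but only 1 of the 4 adult libraries reached the filter's cut-off. Its level averaged 30.1 ± 9.74 CPM in neonatal libraries, against 6.11 ± 5.15 CPM in adult libraries (log2 2.23 ± 0.45 SE, edgeR's adjusted p = 0.000836).

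**Figure D2:**
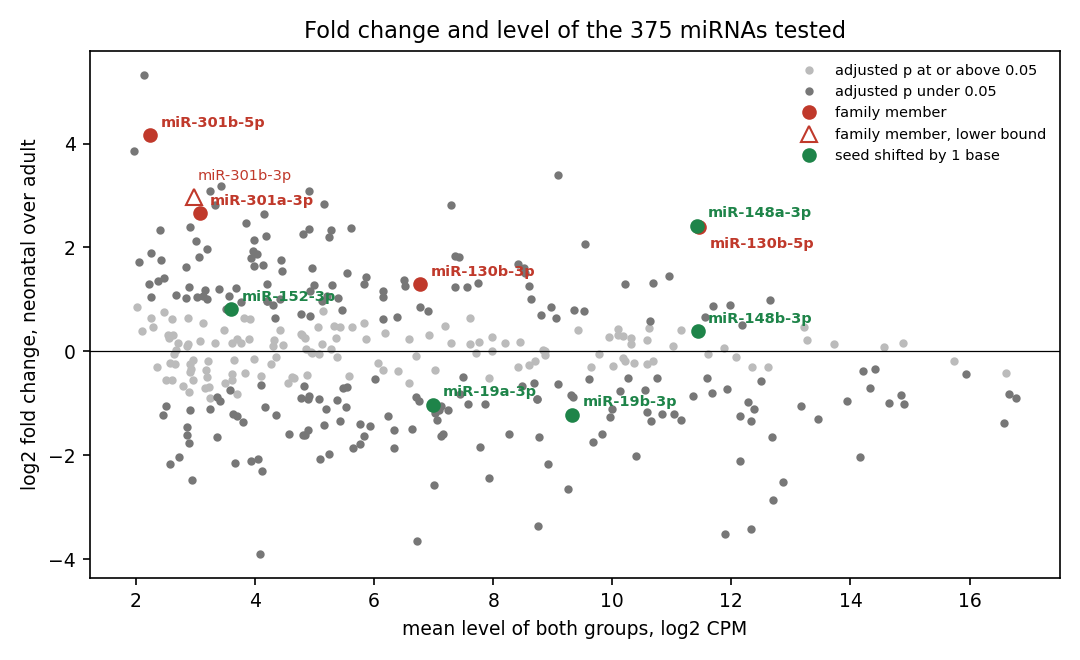
Log2 fold change (neonatal over adult) against mean level (log2 CPM) for the 375 miRNAs tested, with family members in red and miRNAs whose seed is shifted by 1 base in green. miR-301b-3p is an open triangle at its lower bound of 2.98, and miR-130b-5p lies at 2.39.

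The 3p members that carry the family seed were also summed. They took 0.0198%, 0.0213%, 0.0275% and 0.025% of all counts in neonatal libraries 1 to 4, against 0.0064%, 0.00551%, 0.00541% and 0.00407% in adult libraries 1 to 4. The mean share was 4.37 times as high in neonatal libraries (p = 0.0286 in a two-sided exact permutation test, the lowest that 4 against 4 libraries can give). Shares are of library totals, on which 49.6% of all miRNAs tested were called higher and 18.1% lower by edgeR. On the TMM scale the log2 ratio of the sum was 1.50, in place of 2.13 for the share of counts. miR-130b-3p made up 82.8% of the summed 3p counts in neonatal and 95.3% in adult libraries. miR-301a-3p made up 7.83% of the neonatal and 3.55% of the adult counts, and miR-301b-3p 8.26% of the neonatal and none of the adult counts.

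Strands of one hairpin are compared without scaling between libraries. Levels of different miRNAs in one library depend on how well each ligates to the adapters, so the size of a strand ratio is uncertain, while its difference between libraries is less so. The 5p strand took 97.9%, 96.8%, 96.4% and 95.9% of the counts of the miR-130b hairpin in the neonatal libraries, against 93.8%, 92.3%, 93.4% and 94% in the adult ones. Every neonatal share lay above every adult one, as was so for the strand ratio of 18.3% of 82 hairpins with both strands counted. The log2 ratio of 5p to 3p was 4.94 ± 0.44 in neonatal and 3.82 ± 0.18 in adult libraries (SD, n = 4 each). The difference of 1.12 ± 0.23 (SE) passed in a limma fit over these hairpins (adjusted p = 0.0023). Of these hairpins, 41.5% were called in either direction and 22% with a higher 5p to 3p ratio in neonatal libraries, and miR-130b ranked 10 by the size of the rise. The rise was 1.28 in libraries 1 and 3 alone and 0.95 in libraries 2 and 4 alone. A ratio does not give the direction of either strand. By the edgeR fold changes above, both strands of miR-130b were higher in neonatal cells, the 5p strand by more.

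The miR-301 hairpins had another balance. The 5p strand of miR-301a took 61.4% to 70.5% of the hairpin's counts in neonatal libraries and 55.6% to 100% in adult libraries, where a library held only 3 to 32 counts. Its log2 ratio of 5p to 3p differed by -0.47 ± 0.61 (SE), which did not pass in limma (adjusted p = 0.547). In the miR-301b hairpin the 5p strand took the smaller part in all 4 neonatal libraries, 21.4%, 39.7%, 40.5% and 42.1%. Over the 4 neonatal libraries it took 91 of 242 counts, 37.6% (95% exact interval 31.5% to 44%). The adult libraries held 3 counts of this hairpin in all, too few for a share. The neighbours on chromosome 16 thus differed in which strand was counted more in neonatal libraries, miR-130b-5p over miR-130b-3p and miR-301b-3p over miR-301b-5p.

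**Figure D3:**
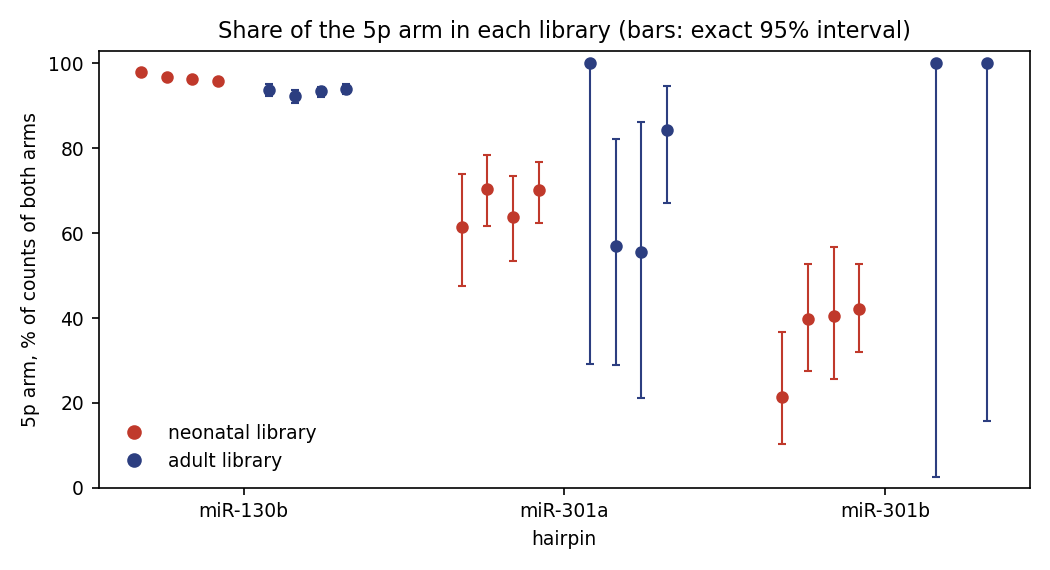
Share of the 5p strand in the counts of each hairpin (%), one point per library with its exact 95% interval, neonatal libraries in red left of adult libraries in blue. The miR-130b points lie at 95.9% to 97.9% for neonatal libraries and at 92.3% to 94% for adult ones, while miR-301b lies below 50% in neonatal libraries. Adult libraries with no count of a hairpin have no point.

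Members were then compared with each other within each library, over 10 pairs of the 5 tested members. The log2 ratio differed between the age groups in 6 of the 10 pairs (exact permutation test, two-sided, adjusted p = 0.0476 for each, from the smallest p possible). Of these 6, only miR-130b-5p over miR-130b-3p is made of strands that passed the filter in both groups. The other 5 involve the strands that passed it through neonatal libraries alone, so they are given as a description. In this test the adjusted p of the miR-130b pair depends on these 5 also having the smallest p. Among them, miR-301b-5p over miR-301b-3p did not pass in the limma fit over hairpins (adjusted p = 0.098). With same-numbered libraries treated as pairs, none passed (adjusted p = 0.156), since 4 pairs cannot give a p below 0.125 in a sign-flip test. The family share above gives that smallest p of 0.125 as well. Pairs that involve a strand with no adult count depend on the 0.5 added to each count.

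The ratio of miR-301a-3p to miR-130b-3p was steady among neonatal libraries, at -3.34, -3.34, -3.57 and -3.29 on the log2 scale, against -7.37, -3.82, -4.92 and -4.10 in adult libraries. The mean difference of 1.67 fell to 0.89 without adult library 1, where miR-301a-3p had no count. miR-301a-3p over miR-130b-5p did not pass, with a difference of 0.55 (adjusted p = 0.743, exact permutation test, n = 4 each). That difference was -0.26 without adult library 1 and 1.04 without adult library 2, so its direction rests on single libraries.

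Within the chromosome 16 cluster, miR-301b-3p made up 12.6%, 9.31%, 5.59% and 10.1% of the counts of both 3p strands in neonatal libraries 1 to 4. In adult libraries it made up 0 of 403 counts, with an upper limit of 0.911% by the 95% exact interval. Over the neonatal libraries the share was 9.08% (95% exact interval 7.74% to 10.6%). The adult limit lies under the lower bound of that interval, which pools counts and leaves out the spread between libraries. Since miR-301b-3p passed the filter through neonatal libraries alone, this contrast is given as a description. Every neonatal share of miR-301b-3p lay above the adult libraries' 0, while a single adult library allows up to 2.68% to 4.4% by its exact interval. The limits of adult libraries 1, 2 and 4 lie above the lower bound of neonatal library 3, 3.65%. Over summed counts the 5p strands ran the same way, with miR-301b-5p at 0.204% of both in neonatal libraries (95% exact interval 0.164% to 0.25%), against 0.0523% in adult ones (0.0108% to 0.153%). By library the 5p shares overlapped, with 0.0839%, 0.224%, 0.15% and 0.349% in the neonatal libraries, against 0%, 0.092%, 0% and 0.135% in the adult ones. Neonatal library 1 lay under adult libraries 2 and 4, and the ratio of the 5p strands did not pass over libraries (exact permutation test, adjusted p = 0.214).

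**Figure D4:**
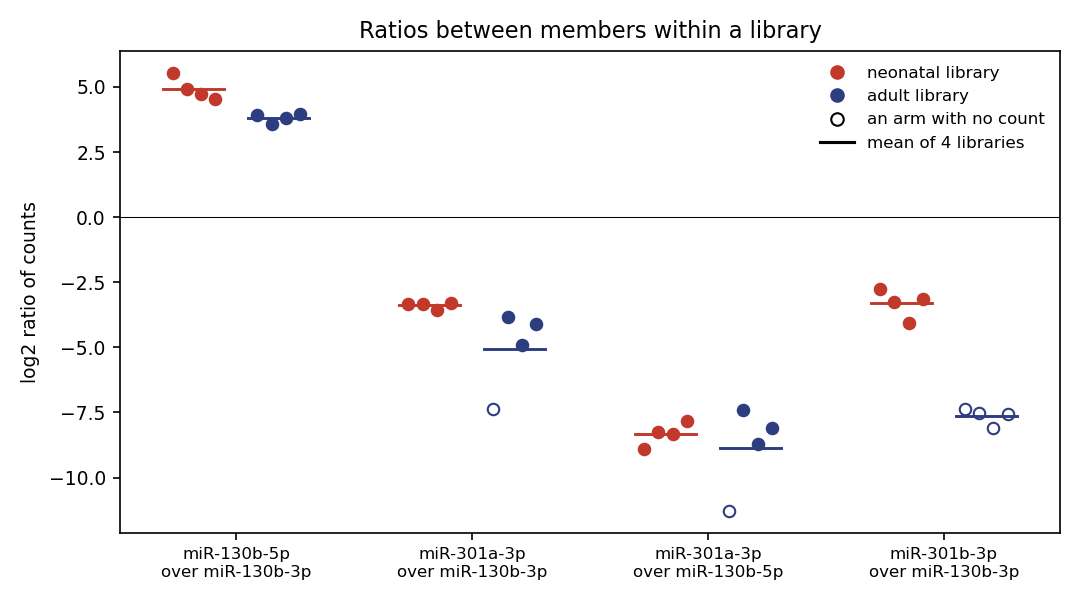
Log2 ratios of counts between members within a library, neonatal libraries in red left of adult libraries in blue, lines at the means of 4 libraries. Open points are libraries where an arm has no count, so that the point is set by the 0.5 added. miR-130b-5p over miR-130b-3p and miR-301b-3p over miR-130b-3p stand apart between the groups, while miR-301a-3p over miR-130b-5p overlaps.

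Other miRNAs with the family seed were hardly seen in these libraries. RefSeq lists 7 mature miRNAs with the letters AGUGCAA at bases 2 to 8, of which miR-130c, miR-721 and miR-6389 had no count in any library and miR-6341 an estimated count of 0.5 in adult library 2 alone. Also followed were listed miRNAs whose seed is shifted by 1 base, while the seeds of all counted miRNAs were not searched. Examples are shown with their own bases 2 to 8 in capitals.
miR-19b-3p: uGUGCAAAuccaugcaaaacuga
miR-148a-3p: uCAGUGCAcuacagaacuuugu
miR-148b-3p: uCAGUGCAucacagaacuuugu
The first shares 6 letters in a row with the start of miR-130b-3p, and the others 7. Of 5 such miRNAs tested, 2 rose, 2 fell and 1 did not pass, beside 29.1% higher and 34.1% lower of all miRNAs tested. miR-148a-3p, known for its part in B cell tolerance in mice, averaged 4645 ± 540 CPM in neonatal libraries, against 867 ± 167 CPM in adult libraries (log2 2.42 ± 0.17 SE, edgeR's adjusted p = 1.62e-07). miR-148b-3p averaged 3142 ± 346 CPM in neonatal libraries, against 2399 ± 270 CPM in adult libraries (log2 0.39 ± 0.14 SE, edgeR's adjusted p = 0.0287). That call was lost without adult library 1 or 3 (adjusted p of 0.0858 and 0.0511) and with libraries 2 and 4 alone (0.0529).

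The miR-19 miRNAs, which drive lymphocyte proliferation as part of the miR-17 to miR-92 cluster, moved the other way. miR-19b-3p averaged 386 ± 106 CPM in neonatal libraries, against 897 ± 193 CPM in adult libraries (log2 -1.22 ± 0.21 SE, edgeR's adjusted p = 0.000317), with no overlap. miR-19a-3p averaged 83.2 ± 30.5 CPM in neonatal libraries, against 169.7 ± 74.5 CPM in adult libraries (log2 -1.03 ± 0.33 SE, edgeR's adjusted p = 0.0149). Its call was lost when library totals were used (adjusted p = 0.255), when GC content was corrected (0.0633), and without neonatal library 1 (0.0567) or adult library 4 (0.0584). miR-152-3p averaged 15.4 ± 2.04 CPM in neonatal libraries, against 8.75 ± 5.63 CPM in adult libraries, and did not pass in edgeR (adjusted p = 0.11). It passed when library totals were used (0.00992), with no filter on low counts (0.0395), with limma-voom (0.049), once same-numbered libraries were blocked (0.0179), without adult library 4 (0.0217) and with libraries 1 and 3 alone (0.00329).

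The miRNAs outside the family whose levels followed miR-130b-3p most closely over the 8 libraries were miR-3474 (Pearson r = 0.973), miR-132-3p (0.967), miR-322-3p (0.963), miR-433-3p (0.959) and miR-3066-5p (0.948). They are given as a description of log2 CPM, which the age difference dominates. By the same measure miR-130b-5p had r = 0.935 and miR-301a-3p 0.772. Of deviations from the group means, r with miR-130b-3p was 0.905 for miR-132-3p and 0.315 for miR-130b-5p. miR-132-3p was picked by its r over the same 8 libraries, which holds these deviations too. Its value therefore cannot be weighed against that of miR-130b-5p.

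Bead enrichment can leave other cells, and several miRNAs typical of them were also higher in neonatal libraries. Their shares are of library totals, on which 49.6% of all miRNAs tested were called higher and 18.1% lower, while the counts of calls are on the TMM scale, with 29.1% higher and 34.1% lower. Erythroid miRNAs took 0.0356% to 0.0998% of neonatal and 0.00949% to 0.0202% of adult counts, with 3 of 5 tested and all 3 higher. Among these, miR-486a-5p and miR-486b-5p had nearly the same counts in each library, so they cannot be taken as separate calls. Their sums were 2351 and 2434 in neonatal and 456 and 476 in adult libraries, the larger part of the erythroid counts. Endothelial ones took 0.0162% to 0.0185% of neonatal and 0.00375% to 0.00607% of adult counts (2 of 2 higher). These 2, miR-126a-3p and miR-126a-5p, are strands of 1 hairpin and cannot be taken as separate calls. miR-126a-5p also passed the filter on low counts through neonatal libraries alone and so had to differ. Stromal ones took 0.0133% to 0.0221% of neonatal and 0.00307% to 0.00668% of adult counts (3 of 8 tested, all 3 higher, miR-143-5p at 0). Of these, the stromal miR-143-3p lost its call without adult library 1 (edgeR's adjusted p = 0.0649) or 4 (0.0628) and with libraries 2 and 4 alone (0.159). The other untested stromal miRNAs had few counts and did not all run higher. Summed neonatal and adult counts were 4 and 4 for miR-145a-5p, and 8 and 4 for miR-145a-3p. They were 11 and 18 for miR-199a-5p, and 26 and 16 for miR-214-3p. The liver miRNA miR-122-5p took 0.0863% to 0.205% of neonatal and 0.0193% to 0.0314% of adult counts. The myeloid miRNAs were near 0, with 39 neonatal and 24 adult counts of miR-223-3p in all. The 4 lymphocyte miRNAs, which do not single out CD8+ T cells, took 7.38% to 8.37% of neonatal and 10.5% to 16.2% of adult counts and all fell. For comparison, miR-130b-5p alone took 0.473% to 0.737% of neonatal and 0.0599% to 0.0973% of adult counts. Its share was highest in library 1, then in library 3, in both groups, and the same order of all 4 libraries was seen for the erythroid, liver and lymphocyte miRNAs, but not for the endothelial or stromal ones. The shares of miR-130b-3p did not follow it, with libraries 3, 4, 2 and 1 from high to low in the neonatal group and 1, 3, 2 and 4 in the adult group. The part of other cells in the family's rise was not tested.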

How the data were processed

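The values are estimated counts for each pair of mature miRNA and precursor, as the authors deposited them, with no scaling between libraries. The genome build was mm10, per the submitters' processing notes. No aligner, counter or annotation release is named in the labels. Libraries were made with the NEBNext small RNA kit from bead-enriched cells, per the labels' protocols. Of values above 0, 71.4% were whole to within 0.001. Counts were summed over precursors (each member has 1 precursor) and rounded.

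edgeR 4.0.16 (R 4.3.3) tested age group in all 8 libraries after filterByExpr (minimum count 10, minimum total 15), with TMM factors of 1.16 to 1.3 for neonatal libraries and 0.788 to 0.812 for adult ones. Strand ratios, log2((5p + 0.5)/(3p + 0.5)), were tested with limma 3.58.1. DESeq2 1.42.0 was an alternative. Single values were compared by exact permutation over the 70 divisions of the libraries. The main edgeR fit, a plain limma fit of ratios and the permutation test were tried on simulated data. No 2 libraries of a group agreed within counting noise (chi-square over its degrees of freedom 19.1 to 450).

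Deviations from the group means correlated at r = 0.256 to 0.415 between same-numbered libraries of the 2 groups (up to 0.482 between others), so the numbers were treated as pairs on this check alone. What the numbers mark is not stated in the labels. Libraries 1 and 3, and 2 and 4, also went together, so fits within these were added after the data were seen. The members, lists and tests were chosen with earlier results of these data known. Named were all members, the seed relatives, 6 defining markers of cell types, and the 5 miRNAs most like miR-130b-3p. Some other miRNAs of the cell lists are named beside these.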

Additional observations from a re-analysis of the deposited data

Results flagged for a closer look

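Of 45 sets of 4 libraries examined, 2 held a value far from the other 3, where chance flags about 1 in 20. The log2 ratio of miR-301b-5p to miR-301b-3p was -1.82 in neonatal library 1, against -0.59 to -0.45 in the other neonatal libraries, from 9 and 33 counts. The log2 ratio of miR-301b-3p to miR-301a-3p was 0 in adult library 1, against -3.7 to -3.17 in the other adult libraries. In that library neither strand had a count, so its ratio is set by the 0.5 added to each.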

How the results depend on the processing

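The 5 tested members were called higher under 20 alternatives (scalings, filters, DESeq2, limma-voom, the replicate number as a block, a GC offset and libraries left out), except miR-301b-5p where it was not tested, with 4 members called. miR-301a-3p, miR-301b-3p and miR-301b-5p passed the main filter through neonatal libraries alone. Their calls under the alternatives are therefore a description, and only those of the miR-130b strands are free of that choice. The log2 fold change of miR-130b-5p ranged from 2.33 to 3.03 and that of miR-130b-3p from 1.22 to 1.93. Leaving out 1 library gave 220 to 253 called miRNAs in place of 237, log2 ratios of the 3p share of 2.02 to 2.23, and strand differences of miR-130b of 0.91 to 1.25. With library totals 186 miRNAs were higher and 68 lower, in place of 109 and 128. With same-numbered libraries as a replicate block, sign flips left the share's log2 ratio at 2.13 (exact p = 0.125) and 0 of the 10 member ratios past the threshold (6 without the block), by construction, since 4 pairs cannot pass. The block ended no call of a member, and of the named miRNAs it added miR-152-3p alone. Without a filter miR-130a-3p stood at 1.52 ± 0.87 (SE, edgeR's adjusted p = 0.21). GC content was known for 83.7% of the tested miRNAs and not for miR-301b-3p. Depth limits the miR-301 and miR-130a values in adult libraries to a few counts each.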
